A study of Mus musculus with 5 samples.

Results

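Peaks of 500 bp or more that overlapped no peak of another list were taken from 3 ChIP-seq peak lists of mouse cells, 1 for ZHX1 and 2 for hnRNPA1. They are called wide peaks here, and they numbered 3170 of the 89451 listed peaks. The ZHX1 list of 46C-Ctrl gave 620 of 23244 peaks (2.67%), the hnRNPA1 list of 46C-Ctrl gave 254 of 14662 (1.73%) and the hnRNPA1 list of Zhx1-KO gave 2296 of 51545 (4.45%). The members were chosen by their measured width and by the lack of an overlap of at least 1 bp, so their widths and their separation from the other lists are descriptions and not results.

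The cells were CP cells, the cardiac progenitor stage reached when 46C mouse embryonic stem cells are differentiated towards cardiomyocytes. 46C-Ctrl cells carried an unedited Zhx1 gene, and the Zhx1-KO line was made from the same 46C cells by CRISPR/Cas9 with guides at the start and the stop site of Zhx1. Whether that line is a single clone was not stated in the labels. Each antibody and line had 1 library, so there was no replicate, no difference between libraries could be tested, and differences of line, library and depth cannot be told apart. The lists give positions and a gene name per peak without score or read count, which leaves the sequencing depth unknown. Intervals in brackets are Wilson 95% intervals over the peaks of a list and cover counting error only.

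ChIP-seq recovers the DNA that an antibody pulls down with its protein, and a peak is a stretch where the recovered fragments pile up. ZHX1 is a nuclear protein with zinc fingers and homeodomains that is known as a transcriptional repressor and as a partner of NF-Y, which binds CCAAT. hnRNPA1 is an RNA-binding protein of pre-mRNA splicing that prefers UAGGG-type sites in RNA and also binds the telomeric repeat. Where a ChIP signal covers a long stretch, CpG islands, the GC-rich and unmethylated sequence at many gene starts, and repeated elements such as L1 are the common settings. L1 is a retrotransposon that still moves in the mouse genome, with a promoter at its 5′ end followed by ORF1, an RNA-binding protein, and ORF2, the endonuclease and reverse transcriptase.

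The sequences at the centres of the peaks are shown for a few of the loci. All are 200-base windows of the forward strand of GRCm38. The widest peak of each 46C-Ctrl list whose centre is single-copy (below 2 copies in the assembly) comes first, with CpG dinucleotides in capitals. They are the ZHX1 window at Gm26917 (chr17:39844616-39844815) and the control hnRNPA1 window at A630095E13Rik (chr9:36642380-36642579).
Gm26917, ZHX1: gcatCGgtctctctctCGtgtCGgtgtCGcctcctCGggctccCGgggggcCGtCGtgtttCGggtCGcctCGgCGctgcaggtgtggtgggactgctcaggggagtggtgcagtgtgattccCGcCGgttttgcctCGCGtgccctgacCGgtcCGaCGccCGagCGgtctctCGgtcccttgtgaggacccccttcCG
A630095E13Rik, control hnRNPA1: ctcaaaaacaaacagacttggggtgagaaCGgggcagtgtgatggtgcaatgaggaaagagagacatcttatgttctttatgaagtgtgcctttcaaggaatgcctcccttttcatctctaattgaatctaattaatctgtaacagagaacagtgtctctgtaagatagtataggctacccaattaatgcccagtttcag
The ZHX1 window held 23 CpG and had a GC content of 69.5%. The control hnRNPA1 window held 1 CpG at 40.5% GC, so these widest loci had little sequence character in common.

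The single-copy windows of wide 46C-Ctrl peaks with the most TAGGG, written in DNA letters after the RNA site that hnRNPA1 prefers, are shown with TAGGG or its reverse complement CCCTA in capitals. They lay at Gm12460 for ZHX1 (chr4:51176221-51176420) and at Gm17175 for control hnRNPA1 (chr14:51573319-51573518).
Gm12460, ZHX1: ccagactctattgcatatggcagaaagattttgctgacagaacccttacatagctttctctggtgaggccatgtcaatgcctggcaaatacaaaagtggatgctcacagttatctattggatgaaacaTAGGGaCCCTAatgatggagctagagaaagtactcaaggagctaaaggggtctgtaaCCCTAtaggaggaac
Gm17175, control hnRNPA1: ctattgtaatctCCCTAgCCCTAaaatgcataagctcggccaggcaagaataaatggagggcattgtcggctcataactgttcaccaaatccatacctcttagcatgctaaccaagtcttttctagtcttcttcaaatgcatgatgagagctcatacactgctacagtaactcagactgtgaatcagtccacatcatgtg
The ZHX1 window held 3 sites and the control hnRNPA1 window 2.

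A pair of Zhx1-KO windows stands for a repeat and for a developmental gene, with CpG in capitals. The window near Gm18839 (chr6:64882813-64883012) lay inside the ORF1 of an L1 element and its words occurred 2547 times in the genome. The window in the coding sequence of Hoxc13 (chr15:102921722-102921921), a homeobox gene of hair and nail formation, was chosen after its values were seen.
Gm18839, Zhx1-KO hnRNPA1: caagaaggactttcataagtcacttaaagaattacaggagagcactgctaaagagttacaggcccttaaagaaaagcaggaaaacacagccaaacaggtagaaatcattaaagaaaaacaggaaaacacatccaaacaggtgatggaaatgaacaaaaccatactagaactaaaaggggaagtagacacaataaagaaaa
Hoxc13, Zhx1-KO hnRNPA1: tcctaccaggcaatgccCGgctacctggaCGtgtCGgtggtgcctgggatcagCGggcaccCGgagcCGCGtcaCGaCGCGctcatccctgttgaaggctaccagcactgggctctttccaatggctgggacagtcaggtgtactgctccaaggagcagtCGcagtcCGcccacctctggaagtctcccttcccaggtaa
The L1 window held 0 CpG at 36% GC, and the Hoxc13 window 12 CpG at 63.0% GC. The 140 Zhx1-KO wide peaks within 4 kb before an L1 ORF2 frame had a mean GC content of 59.6%. This L1 window is thus not typical of them.

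Width set the members apart from lists of mostly short peaks. The lists began at a smallest width of 228 bp for ZHX1, 223 bp for control hnRNPA1 and 224 bp for Zhx1-KO hnRNPA1, and 36.4%, 33.7% and 28.0% of their peaks had exactly that width. The median width of a whole list was 259, 257 and 271 bp in the same order. The wide peaks had medians of 552 bp (quartiles 518.8 to 604), 544 bp (519 to 585.8) and 566 bp (527 to 633). They stood for 5.29%, 3.42% and 8.78% of the listed length.

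Zhx1-KO hnRNPA1 had the most wide peaks at each width up to 1000 bp, while the single widest peak was of ZHX1. Peaks of 600 bp or more numbered 160, 47 and 816 in the ZHX1, control hnRNPA1 and Zhx1-KO lists, and those of 750 bp or more 27, 2 and 194. At 1000 bp or more the ZHX1 list had 3 peaks, control hnRNPA1 0 and Zhx1-KO 17. The threshold itself did not sit in a gap of the distribution. In the ZHX1 list 9 members had a width of 500 bp and 9 peaks just outside had 499 bp, in control hnRNPA1 these were 2 and 6, and in Zhx1-KO 20 and 26. The requirement of no overlap removed 101 of 721 peaks (14.0%), 46 of 300 (15.3%) and 163 of 2459 (6.63%) of that width.

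**Figure D1:**
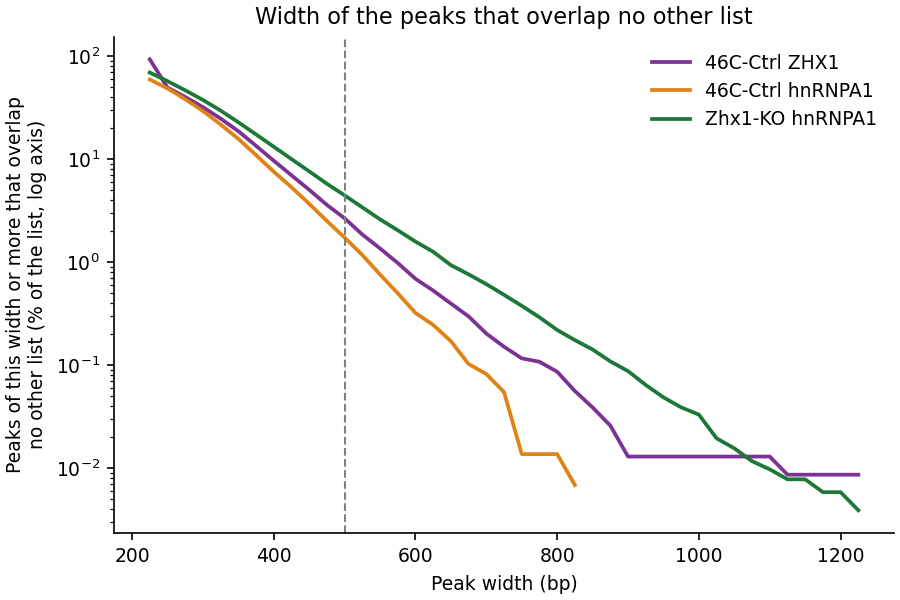
Share of each list (percent, log axis) that overlaps no other list and has a width at or above the value on the x axis (bp), for ZHX1 in 46C-Ctrl, hnRNPA1 in 46C-Ctrl and hnRNPA1 in Zhx1-KO. From 500 to 1000 bp the Zhx1-KO curve lies above the others, and at 1225 bp, with 2 peaks in each list, the ZHX1 curve is above it. Control hnRNPA1 has no peak beyond 831 bp.

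The widest peaks sat at loci of very different kinds. In the ZHX1 list the first was 3266 bp at chr17:39843083-39846348, which covers nearly all of the noncoding gene Gm26917 and carries the deposited name Rn45s, the 45S precursor of ribosomal RNA. Ribosomal RNA genes are tandem arrays that a genome assembly largely leaves out, so the copy value of 1 at this locus describes the assembly and not the genome of the cells. It was far above the second ZHX1 peak, 1227 bp at chr17:6231822-6233048 in the coding sequence of Tulp4. The third was 1121 bp at chr4:87614385-87615505, between genes and named for Mllt3, in sequence with 2651 copies. Below these stood intron peaks in Lsamp (888 bp), a neuronal adhesion gene, and in Grik1 (865 bp), a kainate receptor subunit. A peak of 882 bp was centred 16.5 kb from the nearest start, that of Zdhhc7, and outside that gene. Kcna7, a potassium channel gene, had an 850-bp peak from 0.107 to 0.956 kb into the gene (chr7:45405760-45406609) that lay 0.003 kb from a peak of another list.

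Control hnRNPA1 had the narrowest range, from 831 bp at A630095E13Rik (chr9:36642065-36642895, deposited name Pate14) down to 713 bp for the last of its 10 widest, in an intron of G3bp1, a stress granule protein. Between them were 822 bp beside the pseudogene Gm9229 (chr12:18135404-18136225), 746 bp upstream of Nrxn3, a synaptic adhesion gene, and 736 bp past the end of Tnfrsf10b, a death receptor, 8.94 kb from its nearest start. The Gm9229 window had a GC content of 73.5% and was the 1 wide peak of this list at a promoter whose sequence was both CpG-island-like and single-copy.

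In Zhx1-KO hnRNPA1 the widest peak had 1681 bp and lay on chromosome Y. The next were 1367 bp, 34.1 kb from the start of Gm38298 (3055 copies), and 1208 bp, 7.96 kb from that of 4933404K13Rik (637 copies). Hs3st2, a heparan sulfate sulfotransferase, had a 1058-bp peak across its start (chr7:121391786-121392843), from 0.073 kb before it to 0.984 kb after it. A peak of 1054 bp was single-copy and lay between genes, 12.3 kb from the start of Ppp1r32. The peaks named for Gmnc (1099 bp, 689 copies) and Lama2 (1048 bp, 3065 copies) were in repeats far from those genes, 140.4 kb from the start of Gmnc and, for Lama2, with Gm30228 nearest at 13.3 kb.

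Repeated sequence was more frequent under wide peaks than under the other peaks of a list. A centre was called multi-copy when its 32-base words occurred at least 2 times in GRCm38 at the median. That held for 1015 of 2296 Zhx1-KO wide peaks (44.2%, 42.2 to 46.3) and for 31.2% of the other Zhx1-KO peaks (30.8 to 31.6). For ZHX1 the share was 213 of 620 (34.4%, 30.7 to 38.2) against 25.5% (24.9 to 26.04). Control hnRNPA1 had 74 of 254 (29.1%, 23.89 to 35%) against 24.8% (24.1 to 25.5), where the intervals overlap. Centres with 1000 copies or more made up 17.8% of Zhx1-KO wide peaks and 11.9% of the others, 11.5% and 7.75% in ZHX1, and 7.48% and 7.68% in control hnRNPA1. The authors kept uniquely mapped reads, which limits what can be called in such sequence, and the part of mapping in these shares was not tested.

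**Figure D2:**
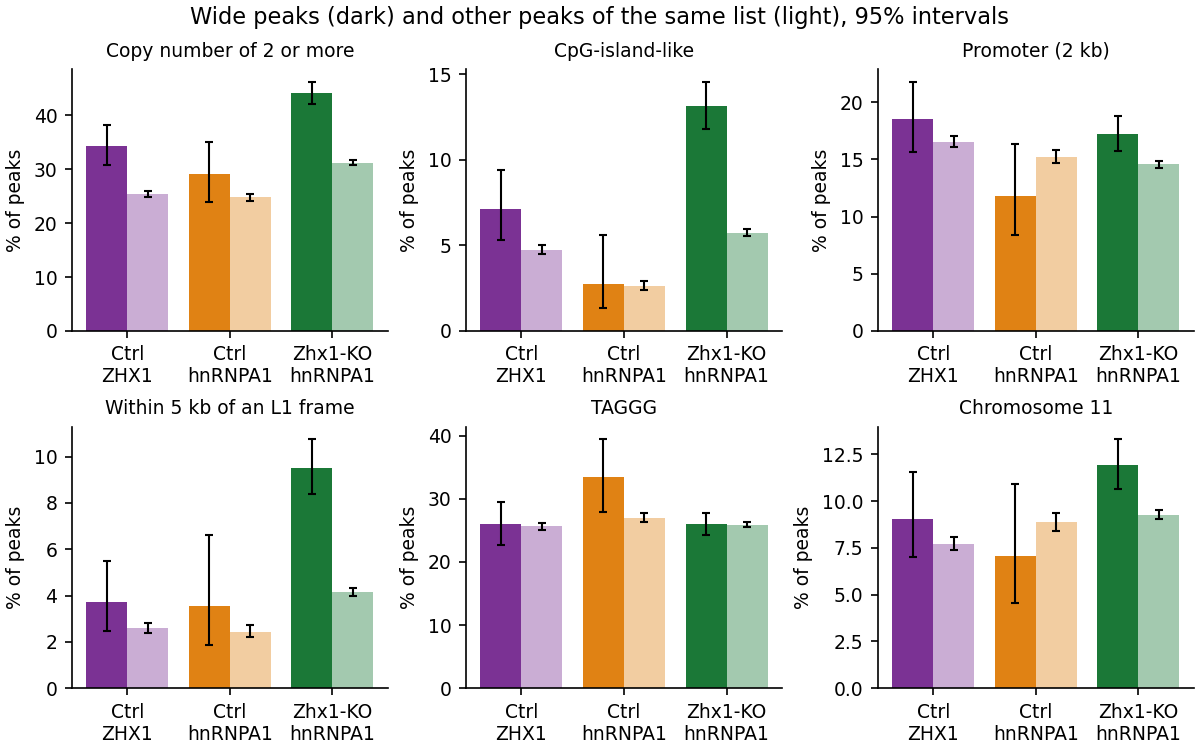
Percent of wide peaks and of the other peaks of each list with 6 properties: multi-copy sequence, CpG-island-like sequence, a promoter, an L1 ORF2-type frame within 5 kb, TAGGG in the central window, and a position on chromosome 11. Bars are Wilson 95% intervals. Zhx1-KO wide peaks stand above the other Zhx1-KO peaks in every panel but that of TAGGG.

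L1 elements were then located in the genome itself, a step added after the data were seen. Open reading frames of the length of L1 ORF2 (median 1300 codons) that hold the L1 reverse transcriptase motif numbered 3331, and 2935 of them (88.1%) had a frame of ORF1 length before them, which began 1.14 kb before ORF2 at the median. These are long L1 copies that are still open, and the sequence within 5 kb of them is 1.25% of the genome. Of the Zhx1-KO wide peaks, 218 lay within that distance (9.49%, 8.36 to 10.8), against 4.13% of the other Zhx1-KO peaks (3.96 to 4.31). The ZHX1 list had 23 of 620 (3.71%, 2.48 to 5.50) against 2.58%, and control hnRNPA1 9 of 254 (3.54%, 1.87 to 6.60) against 2.44%. The difference from the rest of the list thus exceeded the counting intervals in Zhx1-KO hnRNPA1 and in neither control list. For reading frames of a retroviral pol type, found in the same way, the shares in Zhx1-KO were 2.70% (2.11 to 3.45) and 1.22% (1.13 to 1.32).

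The L1 peaks of Zhx1-KO gathered before the coding frames. Between 2 and 1 kb before ORF2, a stretch that includes the end of the 5′ region and the start of ORF1, lay 107 of the 218. The quarter-kilobase from 1.75 to 1.5 kb before ORF2 held the most, 43 wide peaks, or 18.7 per 1000 wide peaks, against 4.08 per 1000 of the other peaks. On either side were 25 wide peaks (10.9 per 1000) from 2 to 1.75 kb and 29 (12.6 per 1000) from 1.5 to 1.25 kb. The other Zhx1-KO peaks had their maximum, 4.67 per 1000, in that last bin. In the same 1-kb stretch ZHX1 had 7 wide peaks and control hnRNPA1 2.

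Peaks before an L1 frame were also wide more often than those elsewhere around it. Of 1105 Zhx1-KO peaks within 4 kb before a frame, 156 had 500 bp or more (14.1%, 12.2 to 16.3). Of 1148 elsewhere within 5 kb of a frame start, 80 did (6.97%, 5.64 to 8.59). The 140 members among the former had a median of 1849 copies and a GC content of 59.6% ± 9.25 (SD over 140 windows). In all, 1695 of the 3331 frames (50.9%) had a Zhx1-KO peak of any width within 5 kb, 554 (16.6%) a ZHX1 peak and 335 (10.1%) a control hnRNPA1 peak. The order of these totals is the order of the list lengths.

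Named examples give the scale of these loci. An intron of Sox6, a transcription factor of muscle and cartilage, held a 1007-bp Zhx1-KO peak (chr7:115817694-115818700) centred 1.939 kb before an L1 ORF2-type frame, with 841 copies and 67.5% GC. Peaks between genes of 1169 bp (named for Ldoc1, with Gm25412 nearest at 30.1 kb), 1022 bp (55.9 kb from Tent5d) and 1022 bp (10.6 kb from Gm23950) had 810, 2698 and 2242 copies. For ZHX1 the 1121-bp and 865-bp peaks named for Mllt3 and Grik1 were centred 1.262 and 1.286 kb before such a frame. The widest control hnRNPA1 peak of this kind, 649 bp in an intron and named for Grm5, was centred 2.247 kb before one.

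**Figure D3:**
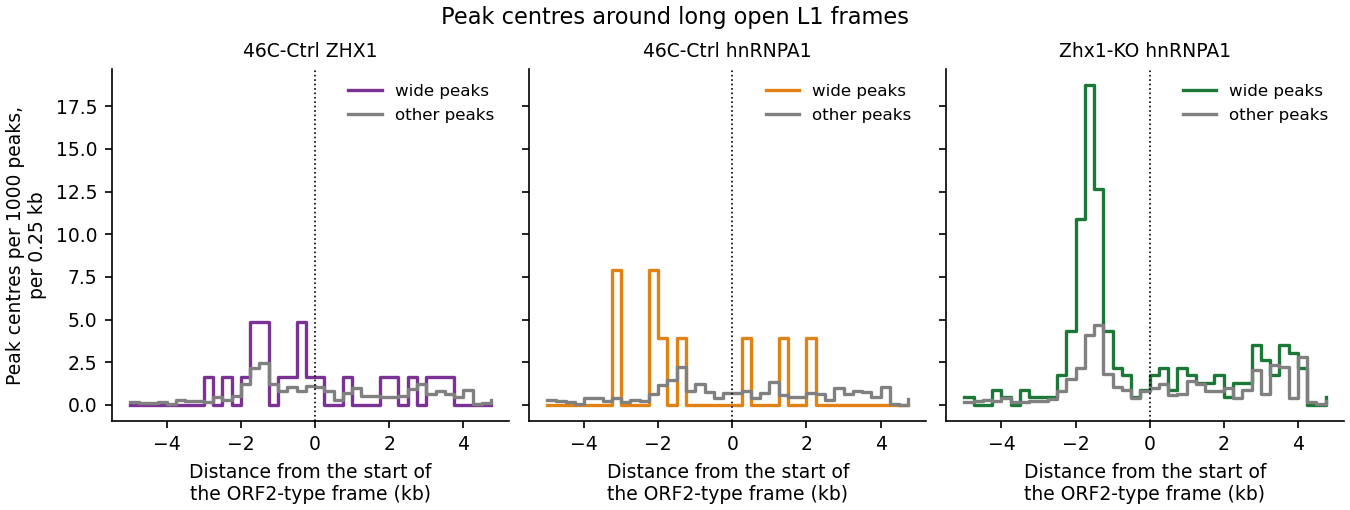
Peaks per 1000 peaks of a set (y axis) by the distance of their centre from the start of the nearest L1 ORF2-type frame (x axis, kb, negative before the frame, bins of 0.25 kb), for wide and other peaks of each list. The Zhx1-KO wide peaks reach 18.7 per 1000 between 1.75 and 1.5 kb before the frame, and the other Zhx1-KO peaks stay at or below 4.67.

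CpG-island-like sequence was another setting of wide peaks, in Zhx1-KO and, at a lower share, in ZHX1. A central window was so called at a GC content of at least 50% and an observed over expected CpG ratio of at least 0.6. In Zhx1-KO hnRNPA1 301 of 2296 wide peaks met this (13.1%, 11.8 to 14.6), against 5.74% of the other peaks (5.53 to 5.94). Of the ZHX1 wide peaks 44 did (7.10%, 5.33 to 9.39), an interval that also begins above the 4.75% of the other ZHX1 peaks. Of the control hnRNPA1 wide peaks 7 did (2.76%, 1.34 to 5.58), against 2.62%. The 301 Zhx1-KO windows came from both settings, 159 in multi-copy and 142 in single-copy sequence.

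Promoters, taken as 2 kb to either side of an annotated transcript start, held 395 Zhx1-KO wide peaks (17.2%, 15.7 to 18.8), against 14.6% of the other peaks (14.3 to 14.9). In single-copy sequence the gap was larger, 24.8% (22.5 to 27.3) against 17.4% (17.0 to 17.8). ZHX1 wide peaks lay at promoters in 115 of 620 cases (18.55%, 15.7 to 21.8), against 16.6% of the others, and control hnRNPA1 wide peaks in 30 of 254 (11.8%, 8.40 to 16.4), against 15.2%. The intervals overlap for both control lists. Promoters that were CpG-island-like and single-copy held 123 Zhx1-KO wide peaks (5.36%, 4.51 to 6.36) against 2.66% of the others, 22 of ZHX1 (3.55%, 2.36 to 5.31) against 2.54%, and 1 of control hnRNPA1 (0.394%, 0.0695 to 2.20) against 0.992%. Of those 123, 88 were centred downstream of the start (71.5%, 63.0 to 78.8), by a median of 0.180 kb over all 123, and 75.5% of the other peaks at such promoters were.

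Most wide peaks, those at promoters included, were centred in introns or between genes, as were the other peaks. Introns held 40.8% of the wide ZHX1 peaks, 42.1% of control hnRNPA1 and 38.1% of Zhx1-KO, against 43.17%, 44.20% and 41.32% of the others. The Zhx1-KO interval (36.14 to 40.11) lay below the share of the others. Intergenic were 47.9%, 50.4% and 50.6%, against 48.43%, 47.90% and 50.05%. Coding sequence held 4.68%, 2.36% and 4.44%, against 3.253%, 2.978% and 3.681%. In single-copy sequence alone, 7.26% of Zhx1-KO wide peaks were centred in coding sequence (5.96 to 8.81), against 4.87% of the other peaks (4.64 to 5.101).

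Several of the widest Zhx1-KO peaks at promoters with CpG-island-like sequence lay at genes of known function. Hoxc13 had 1004 bp (chr15:102921320-102922323) centred in its coding sequence, 0.719 kb from its start, the window shown above. Npas2, a circadian transcription factor, had 943 bp (chr1:39193789-39194731) and a window GC content of 70.5%. Phospho1, a phosphatase of bone mineralization, had 903 bp (chr11:95830462-95831364), centred 0.150 kb from a transcript start inside the gene. Phospho1, and the genes given as examples of CpG islands, L1 elements, families and telomere-type repeats, were named after their values were seen. The ZHX1 list had fewer peaks of this kind. Beside the 3266 bp at Gm26917 they included 661 bp at Vdac1, a mitochondrial channel, 653 bp at Tanc2, a synaptic scaffold, and 587 bp at Rps15a, a ribosomal protein. Promoter peaks of ZHX1 outside CpG islands included 850 bp at Kcna7 and 787 bp at Marcksl1, an actin regulator.

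**Figure D4:**
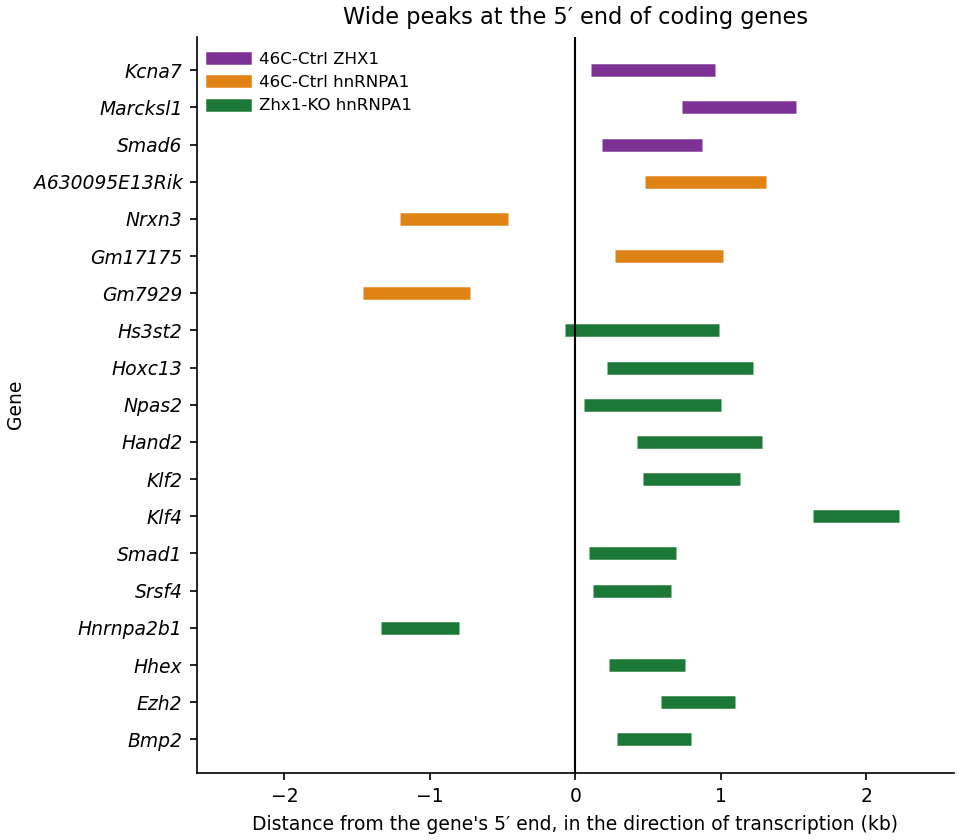
Extent of wide peaks along the gene (x axis, kb from the 5′ end of the gene, positive into the gene) for 19 named genes whose peak lies within 3 kb of that end, coloured by list. The Hs3st2 peak spans the start, those of Hoxc13, Npas2, Hand2, Klf2 and Smad1 lie just inside the gene, and that of Hnrnpa2b1 lies before it.

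Genes of heart formation, other cell types, signalling pathways, splicing, chromatin and the Zhx family were counted on 12 lists with 297 different genes. The totals that follow are over all of these lists and not over heart genes alone. A gene counted when a wide peak was centred at its promoter or in its body. By this count 26 of the 297 had a Zhx1-KO wide peak (8.75%, 6.04 to 12.5), against 4.43% of all 21951 protein-coding genes (972 genes). At the promoter alone these were 13 of 297 (4.38%, 2.58 to 7.34) against 1.30% of all. For ZHX1 5 genes of the lists had one (1.68%, 0.721 to 3.88) against 1.33% of all, and 3 at the promoter (1.01%, 0.344 to 2.93) against 0.401%. Control hnRNPA1 had 0 of the 297 (0 to 1.28) against 0.547% of all, and 0 at the promoter against 0.105%. Any annotated transcript start counted, also 1 far inside a gene. The Zhx1-KO promoter peaks of Vwf, Kdm2b, Bptf and Chd8 began 98.81, 89.54, 86.36 and 20.89 kb from the 5′ end of the gene. Those of ZHX1 at Wnt5b and Setd2 began 94.09 and 84.64 kb from it. The lists were chosen with earlier results of these data known, and gene length was not matched.

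Cardiac transcription factors and signals had 5 of 36 genes with a wide Zhx1-KO peak, against 4.43% of all protein-coding genes. Either control list had 0 of 36. Only 1.33% of all genes had a wide ZHX1 peak and 0.547% a wide control hnRNPA1 peak. At such shares 0 of 36 cannot be read as a lack. Hand2, a bHLH factor of the right ventricle and the second heart field, had 859 bp at chr8:57321405-57322263, centred 0.851 kb into the gene in a window of 80.0% GC. Gata4, a zinc finger factor of early heart development, had 592 bp in its coding sequence (chr14:63240487-63241078) at 76.5% GC. Foxc1, a forkhead factor of mesoderm and outflow tract, had 954 bp in the gene (chr13:31811285-31812238), and Bmp2, a ligand that induces cardiac mesoderm, 510 bp at its promoter (chr2:133552445-133552954). Myocd, the coactivator of serum response factor, had 526 bp in an intron at 48.5% GC. The windows of Hand2, Gata4, Foxc1 and Bmp2 thus had 67.0 to 80.0% GC, above that of Myocd.

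Genes of the contractile and calcium apparatus had 3 of 34, in no case at a promoter. They were Myl4, the atrial light chain (613 bp), and intron peaks in Cacna1c, the L-type calcium channel (578 bp), and Kcnq1, a repolarizing potassium channel (651 bp). Endothelial genes had 2 of 20, Pecam1 (557 bp, intron) and Vwf (533 bp, coding sequence). Endoderm genes had 3 of 12, which included Gata4 and Hhex, a homeobox factor with a peak of 520 bp at its promoter. Neural genes had 0 of 21 in Zhx1-KO, and the ZHX1 list had 1, Lhx2 (608 bp, intron). Of all protein-coding genes 4.43% had a Zhx1-KO and 1.33% a ZHX1 wide peak, so 0 of 21 cannot be read as a lack. The same shares stand beside the counts of the lists that follow.

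Pluripotency genes had 2 of 18, both zinc finger factors of the Klf family and both at the promoter. Klf2 had 667 bp (chr8:72319499-72320165) at 81.0% GC and Klf4 596 bp (chr4:55530240-55530835) at 67.0% GC, each centred in coding sequence. In the TGF-beta, BMP and Nodal pathway 3 of 34 genes had a Zhx1-KO wide peak, the ligands Bmp2 and Tgfb2 (608 bp, intron) and the signal carrier Smad1 (594 bp, promoter, 75.5% GC). The ZHX1 list had the inhibitory Smad6, with 684 bp at the promoter (chr9:64021191-64021874) at 44.0% GC. In the Wnt pathway 2 of 32 had a Zhx1-KO wide peak, the coreceptor Lrp5 (755 bp) and the scaffold Apc (545 bp), both in introns. The ZHX1 list had the ligand Wnt5b (553 bp, at a transcript start inside the gene).

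Chromatin regulators, the longest list, gave the most genes by count, 6 of 50 in Zhx1-KO, 4 of them at a promoter. By share of the list, the endoderm genes and the cardiac transcription factors and signals stood higher in Zhx1-KO. Ezh2, the Polycomb methyltransferase, had 512 bp at 66.0% GC. Kdm2b, a CpG-island-binding demethylase, had 614 bp at 81.5% GC, at a transcript start inside the gene. The remodellers Chd8 (561 bp) and Bptf (586 bp) also had theirs at transcript starts inside the gene, and Chd7 (697 bp) and the acetyltransferase Crebbp (572 bp) in introns. ZHX1 had 1 of 50, Setd2 (549 bp, at a transcript start far inside the gene), a histone methyltransferase. Of hnRNP and splicing genes 2 of 39 had a Zhx1-KO wide peak, Srsf4 (543 bp, promoter, 79.0% GC) and Hnrnpa2b1, whose 536-bp peak was centred 1.066 kb from a start of the gene, in an exon of its neighbour. ZHX1 had U2af1 (543 bp, intron). Zhx1, Hnrnpa1, Mef2c, Src and Epas1, genes that the study examined, had 0 wide peaks in the 3 lists, as did the 6 genes of the Zhx family and NF-Y. The rule leaves out peaks that overlap a peak of another list. Of all protein-coding genes only 4.43% (Zhx1-KO), 1.33% (ZHX1) and 0.547% (control hnRNPA1) had a wide peak. For so few genes 0 cannot be read as a lack of peaks. The centres of the named wide peaks of these gene lists were all single-copy in the assembly.

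Families were compared by the gene with the nearest start. Among 16 families in 3 lists, that is 48 comparisons, the interval of the wide peaks lay wholly above that of the other peaks in 3 and below it in 0. With the names that the lists carry this number was 0. The first was the vomeronasal receptors, pheromone receptor genes in large arrays, with 33 Zhx1-KO wide peaks (1.44%, 1.03 to 2.01) against 0.881% (0.802 to 0.968). Of these 26 were multi-copy and 2 at a promoter. The second was the protocadherins, neuronal adhesion genes in clusters, with 7 Zhx1-KO wide peaks (0.305%, 0.148 to 0.628) against 0.0792% (0.0579 to 0.108). They included coding exons of Pcdha2 (555 bp), Pcdha8 (546 bp), Pcdha11 (585 bp) and Pcdhga7 (555 bp), and 6 of the 7 lay in the clusters of 1 chromosome. Of the 7, 4 were multi-copy, namely Pcdha2 (3 copies), Pcdha8 (2) and intron peaks nearest to Pcdhb8 (770) and Pcdhb9 (657).

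The third was the ribosomal proteins in the ZHX1 list, with 8 wide peaks (1.29%, 0.655 to 2.52) against 0.539% (0.452 to 0.643). All but Rps15a of these 8 names were pseudogenes, among them Rpl38-ps1 (728 bp) and Rpl23a-ps14 (665 bp). Zinc finger genes, the family of ZHX1 in a broad sense, had 9 ZHX1 wide peaks (1.45%) against 0.924%, 3 of control hnRNPA1 (1.181%) against 0.812% and 27 of Zhx1-KO (1.176%) against 0.910%, all within the counting intervals. Olfactory receptors had 31 in Zhx1-KO (1.35%) against 1.12%, and microRNA genes 22 (0.958%) against 1.01%. Hox genes were rare, with Hoxc13 and Hoxd4 (504 bp, coding sequence) in Zhx1-KO, Hoxc13 in control hnRNPA1 and 0 in ZHX1. Predicted genes and Riken clones, which are often annotated in the regions between genes, were nearest to 48.2% of the Zhx1-KO wide peaks and to 49.8% of the others.

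In the ZHX1 and Zhx1-KO lists TAGGG and CCAAT differed between wide and other peaks by less than the counting intervals. TAGGG, on either strand of the central 200 bases, was in 25.97% of the wide ZHX1 peaks against 25.7% of the others, and in 25.96% of the wide Zhx1-KO peaks against 25.9%. In control hnRNPA1 it was in 85 of 254 wide peaks (33.5%, 27.95 to 39.5) against 27% (26.3 to 27.7), an interval that begins just above that of the others. CCAAT, the NF-Y site, on either strand, was in 27.7%, 28.3% and 28.0% of the wide peaks of ZHX1, control hnRNPA1 and Zhx1-KO, against 27.3%, 27.2% and 28.3% of the others. The G-quadruplex pattern, in which 4 stretches of 3 or more G are parted by 1 to 7 bases on either strand, was in 4.84%, 2.36% and 4.01% against 3.16%, 2.72% and 3.70%. For ZHX1 the interval of the wide peaks (3.41 to 6.82) began just above that of the others (2.94 to 3.401).

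Longer telomere-type repeats were looked for after the values were seen. At least 3 units of TTAGGG in a row, on either strand, were in the windows of 6 wide peaks, all of Zhx1-KO, against 97 of the other Zhx1-KO peaks. That is 0.261% (0.120 to 0.569) and 0.197% (0.161 to 0.240). Among them were peaks near Gm25614 (501 bp), Olfm1 (635 bp), Gm47143 (534 bp), Mfap2 (670 bp) and Gm38046 (751 bp). The wide ZHX1 and control hnRNPA1 peaks had 0 of 620 (upper bound 0.616%) and 0 of 254 (upper bound 1.49%).

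Genes with a wide peak in more than 1 list were counted, but the same count for the other peaks was not made. The rule on overlap also bears on it, so it cannot be called high or low. By the nearest start the members named 2928 genes, of which 97 had a wide peak in 2 lists and 0 in all 3. ZHX1 and Zhx1-KO hnRNPA1 shared 70, which is 11.4% of the 613 ZHX1 genes and 3.24% of the 2159 Zhx1-KO genes. Control hnRNPA1 and Zhx1-KO hnRNPA1 shared 22 (8.70% of 253 and 1.02% of 2159), and the 2 control lists 5 (0.816% and 1.98%). Since members overlap no peak of another list, these are neighbouring and not shared positions. The closest peaks of the 2 lists were 24.0 kb apart at the median, and in 28 genes they were within 10 kb.

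A few of these genes held wide peaks almost side by side. At Skor1, a corepressor of the nervous system, a ZHX1 peak of 525 bp (chr9:63145650-63146174) and a Zhx1-KO peak of 544 bp (chr9:63144940-63145483) were 0.166 kb apart, both at the promoter. At Zfp112, a zinc finger gene, hnRNPA1 peaks of 529 bp in 46C-Ctrl and 625 bp in Zhx1-KO were 0.850 kb apart. Hoxc13 had its 1004-bp Zhx1-KO peak and, 3.761 kb away, a control hnRNPA1 peak of 539 bp (chr15:102926085-102926623) in its intron. Phospho1 had 546 bp of ZHX1 1.747 kb from its 903 bp of Zhx1-KO. These genes were named for the short distance after it was seen. By summed width the leading 10 genes of this kind were Mid1-ps1, Gm23950, Plxna2, Gm12210, Gm12295, Adcy1, Myh10, Ankfn1, Gm11986 and Gm18839, and at Myh10, a nonmuscle myosin heavy chain, peaks of 522 bp (ZHX1) and 652 bp (Zhx1-KO) were 8.164 kb apart. Chromosome 11 held 24 of the 97 genes (24.7%, 17.2 to 34.2). It also held 9.03% of all wide ZHX1 peaks, 7.09% of control hnRNPA1 and 11.9% of Zhx1-KO. The part of this density of peaks in the share of genes was not tested.

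Chromosome 11 had the highest density of wide peaks among the autosomes in every list. It held 2.31 Zhx1-KO wide peaks per Mb, while the other autosomes had 0.619 (chromosome 19) to 1.12 (chromosome 17). For ZHX1 it had 0.472 per Mb against 0.160 to 0.395, and for control hnRNPA1 0.152 against 0.0737 to 0.137. Narrower peaks were dense there too, and 5.66% of the Zhx1-KO peaks on chromosome 11 were wide, against 3.19 to 5.35% on the other autosomes. Of all wide Zhx1-KO peaks 274 were on chromosome 11 (11.9%, 10.7 to 13.3), against 9.27% of the others (9.02 to 9.53), and in single-copy sequence 17.4% (15.4 to 19.6) against 11.6% (11.2 to 11.9). The share was 9.03% against 7.70% in ZHX1 and 7.09% against 8.86% in control hnRNPA1. Chromosome X had 0.0367, 0.00612 and 0.367 wide peaks per Mb in the ZHX1, control hnRNPA1 and Zhx1-KO lists.

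**Figure D5:**
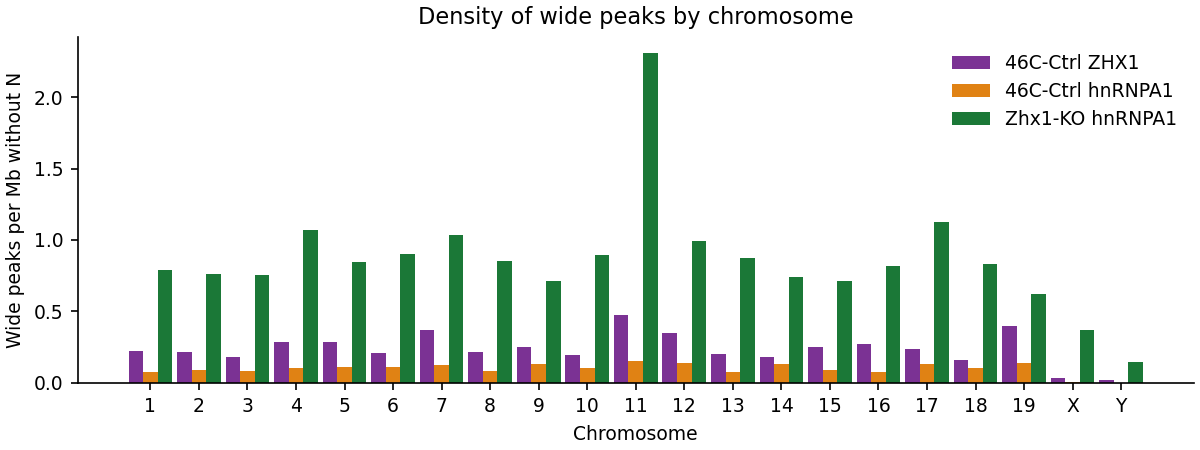
Wide peaks per Mb of assembled sequence (y axis) for each chromosome (x axis) in the 3 lists. Chromosome 11 is the highest autosome in each, at 0.472 (ZHX1), 0.152 (control hnRNPA1) and 2.31 per Mb (Zhx1-KO hnRNPA1).

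Wide peaks of Zhx1-KO had a neighbour in their own list more often than the other peaks did. Another Zhx1-KO peak lay within 1 kb of 195 of them (8.49%, 7.42 to 9.70), against 5.97% (5.76 to 6.18). In single-copy sequence the share was 5.46% (4.35 to 6.85) against 4.02% (3.82 to 4.24). ZHX1 had 4.35% against 3.27%, and control hnRNPA1 2.36% against 1.81%. Peaks of another list lay within 1 kb of 9.35% of the wide ZHX1 peaks, 13.4% of control hnRNPA1 and 5.75% of Zhx1-KO, a distance that the rule on overlap bears on. From ZHX1 wide peaks the median distance was 40.7 kb to control hnRNPA1 and 11.8 kb to Zhx1-KO at the median, from control hnRNPA1 26.1 kb to ZHX1 and 12.45 kb to Zhx1-KO, and from Zhx1-KO 30.7 kb to ZHX1 and 47.5 kb to control hnRNPA1. These distances depend on the lengths of the lists.

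Mean base composition was close between wide and other peaks, and its spread differed by list. The central windows of Zhx1-KO wide peaks had a GC content of 49.9% ± 9.62 (SD, n = 2296 peaks) and those of the other Zhx1-KO peaks 48.8% ± 7.70 (SD, n = 49249). For ZHX1 they were 47.5% ± 8.91 and 46.7% ± 8.21, and for control hnRNPA1 46.7% ± 6.62 and 46.8% ± 7.24, so the wide peaks spread more in ZHX1 and Zhx1-KO and less in control hnRNPA1. The CpG ratio had a median of 0.225 in Zhx1-KO wide peaks and 0.181 in the others, 0.181 and 0.172 in ZHX1, and 0.156 and 0.167 in control hnRNPA1.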

How the data were processed

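ChIP-seq was done for ZHX1 and hnRNPA1 in 46C-Ctrl and for hnRNPA1 in Zhx1-KO, 1 library each, and 2 input samples were not analysed here. Adapters were removed by the authors with cutadapt 1.18, and reads shorter than 50 bases were discarded. The rest were aligned to GRCm38, and uniquely mapped reads without duplicates were kept. The submitters' processing notes name Bowtie2 2.3.5.1, deepTools 3.3.0 and BWA 0.7.12-r1039, the last with no role. Not given in the sources used here are the peak caller, its threshold and any use of the inputs. The deposited lists hold the positions and a gene name of each peak, called per library without pooling, with no score, signal or count, so precision rests on the number of peaks alone.

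Members were peaks of at least 500 bp without an overlap of at least 1 bp with another list. Properties other than position were read from the central 200 bases, so that width could not set them. Copy number was the median occurrence of the 32-base words of a window in GRCm38. Genes and transcript starts came from GENCODE M21, a promoter being 2 kb to either side of any start. Named genes were those at the 10 widest peaks and 5 widest promoter peaks of each list, up to 10 with wide peaks in 2 lists, up to 6 members per gene list, and the genes the study examined. Some genes and windows that these rules picked are not reported here. The members, gene lists and families were chosen with earlier results of these data known. No test between libraries was possible. Shares were set beside those of the other peaks of the same list with Wilson 95% intervals. Alternatives were other width minimums, promoter sizes, copy limits, neighbour distances and the deposited names. The software was numba 0.67.0, matplotlib 3.10.9, numpy 2.4.6, pandas 2.3.3 and scipy 1.17.1 under Python 3.11.15. The steps were tested on simulated data.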

Additional observations from a re-analysis of the deposited data

How the results depend on the processing

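Of 105 alternative values 69 were called the same and 36 moved. Shares, means and medians moved when they left the interval of the main value, and counts by a fixed fold change. A reversal was called only for shares and GC means whose main difference exceeded its interval, and there were 0. Smaller differences did change sign. The chromosome 11 share of control hnRNPA1, 7.087% against 8.863% of the other peaks, was 9.378% against 8.788% at 400 bp. The width minimum set the counts most. At 400 bp there were 2247 ZHX1, 1109 control hnRNPA1 and 6813 Zhx1-KO wide peaks, and at 750 bp 27, 2 and 194. With promoters of 1 kb to either side the promoter share was 12.26%, 8.268% and 12.67%. In Zhx1-KO it was 18.99% for any overlap of the peak with a promoter and 24.82% in single-copy sequence. The multi-copy share at 5 or more copies was 27.58% in ZHX1 and 38.89% in Zhx1-KO, at 400 bp 28.17% and 38.71%, and for the widest 1% of the Zhx1-KO list 53.85%. In single-copy sequence of Zhx1-KO, CCAAT was in 22.87% of the wide peaks, against 24.36% of the others. The G-quadruplex pattern was there in 6.167% (4.976 to 7.620) against 4.539%, and 17.41% against 11.56% were on chromosome 11. Own-list neighbours within 5 kb were found for 17.42%, 11.42% and 31.01%. By deposited names, zinc finger genes took 2.742% of the ZHX1 and 2.178% of the Zhx1-KO wide peaks. GC content in single-copy sequence was 48.28%, 47.60% and 50.33%, and 49.21% in Zhx1-KO at 400 bp. The Zhx1-KO CpG ratio was 0.2064 at 400 bp and 0.1984 in single-copy sequence. At promoters alone, 3 genes of the lists had a ZHX1 and 13 a Zhx1-KO wide peak. Genes in 2 lists numbered 190 by deposited names, 782 at 400 bp and 45 in single-copy sequence. With the minimum of 400 bp, an alternative chosen after seeing the data, the L1 share in Zhx1-KO was 7.163% against 3.946% of the other peaks. The cause was not tested for any of these changes except where fewer or more peaks enter by construction. No paired analysis was possible because each group had 1 library and no replicate number. Depth is unknown, so a longer or wider list cannot be told apart from a deeper library or a looser threshold.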

Other observations

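The deposited lists carry no score, but in the Zhx1-KO list the order of the lines was related to width. Among the first 10% of the lines of the Zhx1-KO list, 375 of 5154 peaks were wide members (7.28%, 6.60 to 8.02), and in the last 10% 173 of 5154 (3.36%, 2.90 to 3.88). In the ZHX1 list these were 68 of 2324 (2.93%, 2.31 to 3.69) and 45 of 2324 (1.94%, 1.45 to 2.58), and in control hnRNPA1 26 of 1466 (1.77%, 1.21 to 2.59) and 21 of 1466 (1.43%, 0.939 to 2.18). For both control lists the intervals overlap. The meaning of the order is not stated in the sources used here.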
